A study of Hordeum vulgare with 10 samples.

Results

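The transcripts described here are those that barley annotates as making, modifying, binding or moving sterols, or as START domain proteins. They were measured in root pieces 2 h after treatment with a fungal sterol or fungal lipids. They were chosen by words in the description that accompanies each transcript in the deposited table. A description had to contain sterol, squalene, cycloartenol, cycloeucalenol, lanosterol, obtusifoliol, Niemann-Pick, START domain or lipid-binding START, and not kinase, and each transcript was taken once. The rule found 79 transcripts of 70 loci among 37962 transcripts. Of these, 26 were described as enzymes or scaffolds of sterol synthesis and 13 as enzymes that conjugate sterols with sugars or fatty acids. A further 39 were grouped as sterol binding and transport. Among these, the START domain descriptions name lipid binding and no sterol. The remaining 1 transcript was described only as Sterol-8, a name that may be cut short. The name gives no role and does not exclude one in synthesis, and the transcript was kept apart.

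Roots of 7 days old wild-type (WT) barley, Hordeum vulgare cv Golden Promise, were cut into pieces and exposed to ergosterol at a final concentration of 250 nM, to a lipid extract of the root endophyte Serendipita indica at a final dilution of 1:160, or to solvent control. All 3 treatments contained methanol at 1:40, all pieces had rested overnight in buffer after cutting, and roots of 2 wells were combined per sample. The data comprised 3 ergosterol, 4 S. indica lipid and 3 solvent control libraries of poly-A RNA, 10 in all. Nothing in the labels says whether the samples of a treatment came from separately grown plants, so p-values measure the spread between these samples, which may be partly technical. As limits of the model, the pieces were detached, each treatment had 1 dose and 1 time point, and the extract is a mixture whose sterol amount was not measured here. In bulk roots, fewer cells of a type and less RNA per cell cannot be told apart.

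Abundance is given in TPM, the number of transcripts among 1000000 transcripts of a library, corrected for transcript length, so that levels of different genes can be compared. TPM hold no read totals, and the depth of each library is therefore unknown. Root markers were present in every library, with summed levels of 84 to 156 TPM for 14 nicotianamine synthase transcripts and 542 to 807 TPM for 22 high-affinity nitrate transporter transcripts. As shoot markers, 11 transcripts of the RuBisCO small subunit summed to 3.1 to 7.7 TPM and 1 photosystem transcript reached at most 1.2 TPM. No description matched Casparian strip membrane protein or Chlorophyll a-b binding protein.

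Plants make their own sterols from farnesyl diphosphate, the product of the mevalonate pathway. Squalene synthase and squalene monooxygenase lead to an epoxide that cycloartenol synthase closes into the first ring-bearing sterol, and a chain of demethylations, isomerizations, desaturations and reductions then leads to sitosterol, stigmasterol and campesterol. Campesterol is also the precursor of brassinosteroid hormones. Fungi use a related chain that ends in ergosterol, which plants do not normally accumulate and can sense as a microbial molecule. Sterols are stored and modified as glucosides and esters, and oxysterol-binding protein (OSBP)-related proteins, START domain proteins and Niemann-Pick C1 proteins bind or carry them between membranes.

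Of the 79 transcripts, 34 averaged 1 TPM or more across the 10 libraries and were tested, 15 of them in synthesis, 6 in conjugation, 12 in binding and transport, and Sterol-8. A further 30 were listed at 0 TPM in every library, and 15 had some signal but lay below 1 TPM. Most silent transcripts belonged to binding and transport, where 23 of 39 were at 0. The family named OSBP-related protein 2B accounted for 19 of these, and its other 2 members averaged at most 0.217 TPM. All 3 homeobox-leucine zipper proteins with a START domain, a class of plant transcription factors, were also at 0. In synthesis 6 of 26 were at 0, comprising 4 of 6 methylsterol monooxygenase 1 transcripts, 1 of 2 methylsterol monooxygenase 2 transcripts and 1 of 2 squalene monooxygenase transcripts. The single transcript named cycloartenol synthase, HORVU.MOREX.r3.6HG0557420.1, averaged 0.316 TPM and was above 0 in 9 libraries. Under the related name terpene cyclase/mutase, the family to which cycloartenol synthase belongs, 10 transcripts were listed, and HORVU.MOREX.r3.6HG0557340.1 was the most abundant. It measured 17.6, 15.1 and 17.5 TPM in ergosterol, 18.8, 18.3, 15.6 and 15.1 TPM in S. indica lipid, and 18.6, 20.5 and 21.3 TPM in solvent control libraries. All ergosterol libraries were below all solvent control libraries, as for 17% of all tested transcripts, and S. indica lipid libraries overlapped with solvent control. The log2 fold change, fitted as described below, was -0.26 upon ergosterol and -0.24 upon S. indica lipids, with adjusted p of 0.253 and 0.326 (limma). The name terpene cyclase/mutase was looked up after the values of the sterol transcripts had been seen, and the table does not say which cyclization the protein performs.

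**Figure D1:**
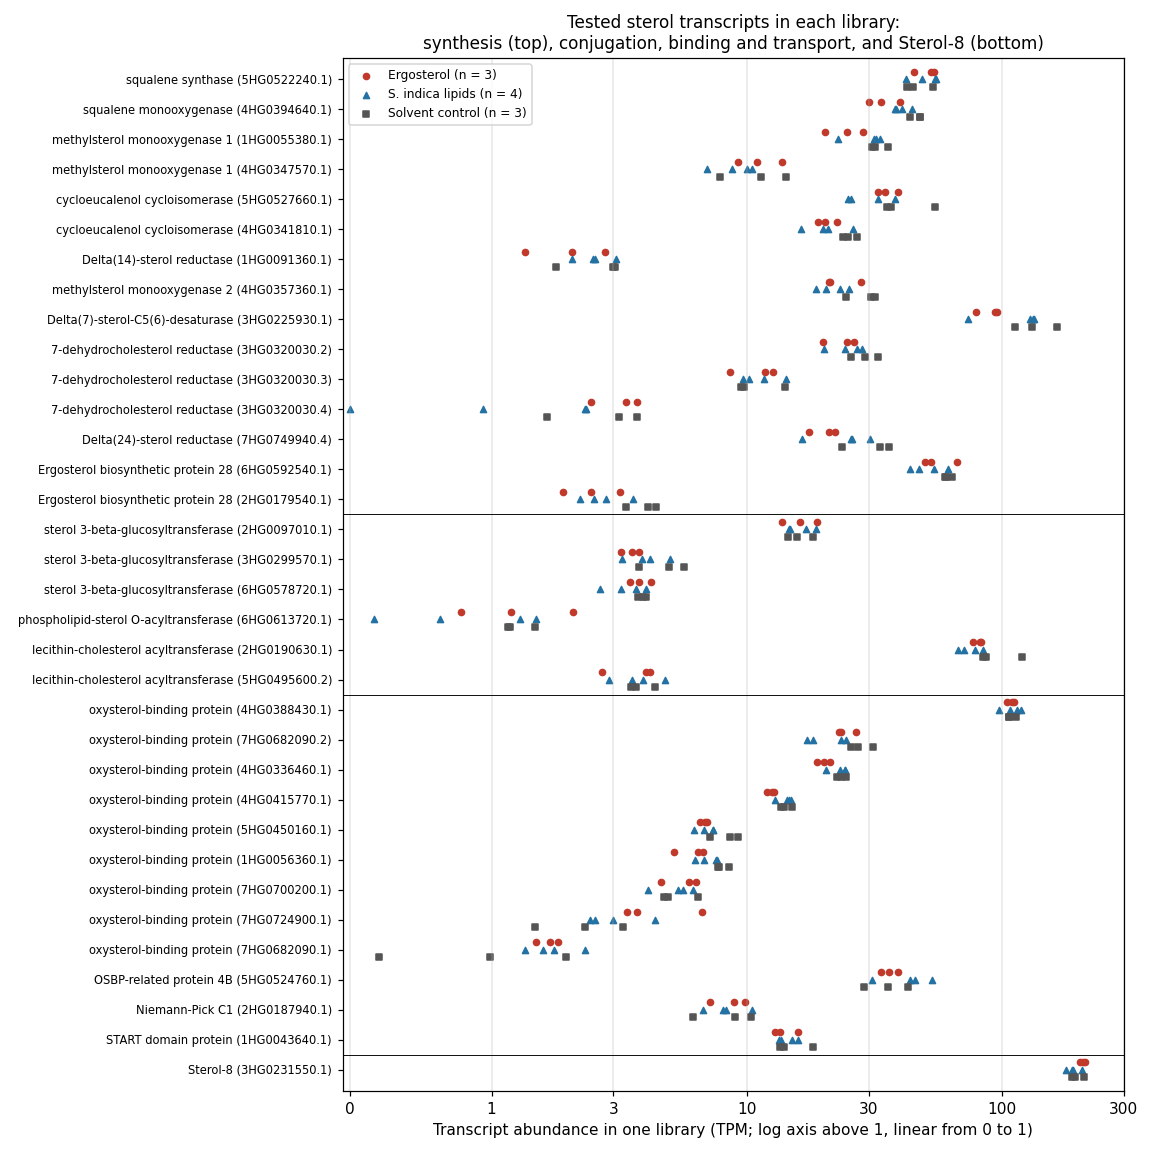
Abundance of the 34 tested sterol transcripts, 1 row each, in the 3 ergosterol (circles), 4 S. indica lipid (triangles) and 3 solvent control libraries (squares), on a TPM axis that is logarithmic above 1 and linear below it. Single libraries spread from 0 TPM for a minor 7-dehydrocholesterol reductase transcript to 211 TPM for Sterol-8, and in most rows the 3 treatments lie among each other.

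At least 1 transcript of nearly every named synthesis step was expressed, at levels that differed more between enzymes than between treatments. No description found by the rule named a sterol methyltransferase, an obtusifoliol demethylase or a side-chain desaturase, so those steps of the chain were not followed. Mean levels over all libraries ran between 2.36 TPM for the lowest tested 7-dehydrocholesterol reductase transcript and 114 TPM for the Delta(7)-sterol-C5(6)-desaturase, with a median of 25.2 TPM. The most abundant of all 79 transcripts was Sterol-8, HORVU.MOREX.r3.3HG0231550.1, with 211, 202 and 207 TPM in ergosterol, 188, 206, 178 and 190 TPM in S. indica lipid, and 194, 187 and 209 TPM in solvent control libraries. Its level lay above that of 96.0% of the 18330 transcripts tested in the series. Among binding and transport proteins, the OSBP HORVU.MOREX.r3.4HG0388430.1 came first with a mean of 109 TPM. Among conjugating enzymes, the lecithin-cholesterol acyltransferase (LCAT) family member HORVU.MOREX.r3.2HG0190630.1, related to enzymes that move a fatty acid from a phospholipid, came first with 83.3 TPM.

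To ask whether ergosterol or the lipids altered sterol transcripts, the libraries were compared with limma on log2(TPM + 1), a scale that understates changes of low transcripts, and p-values were adjusted by Benjamini-Hochberg over all 18330 transcripts. None of the 34 sterol transcripts was differentially expressed at the limits used by the study, an adjusted p no higher than 0.05 together with a log2 fold change (log2FC) that reached 1 or -1. Under ergosterol, 225 of all tested transcripts (1.23%) passed both limits, and upon S. indica lipids 231 (1.26%). Without the fold limit 606 (3.31%) and 710 (3.87%) of all transcripts passed, and again 0 of the 34 sterol transcripts in either comparison. The lowest adjusted p of a sterol transcript was 0.0721 upon ergosterol and 0.143 upon S. indica lipids (limma). At an unadjusted p under 0.05, 7 sterol transcripts were lower and 1 higher upon ergosterol, where 11.8% of all transcripts were lower and 7.87% higher. Upon S. indica lipids 5 were lower and 0 higher, where 6.75% of all transcripts were lower and 8.56% higher.

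These counts came with intervals that bound the change for most transcripts. The 95% interval of the log2FC lay within -1 and 1 for 29 of 34 sterol transcripts upon ergosterol and for 32 of 34 upon S. indica lipids, against 85.0% and 88.6% of all tested transcripts. Because this scale shrinks changes of weak transcripts, an interval within -1 and 1 does not exclude a 2-fold change in their TPM. Intervals passing -1 or 1 belonged, upon ergosterol, to the desaturase, the Delta(24)-sterol reductase, 1 minor 7-dehydrocholesterol reductase transcript and 2 weakly expressed OSBP transcripts. Upon S. indica lipids they belonged to that minor reductase transcript and 1 of those OSBP transcripts.

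**Figure D2:**
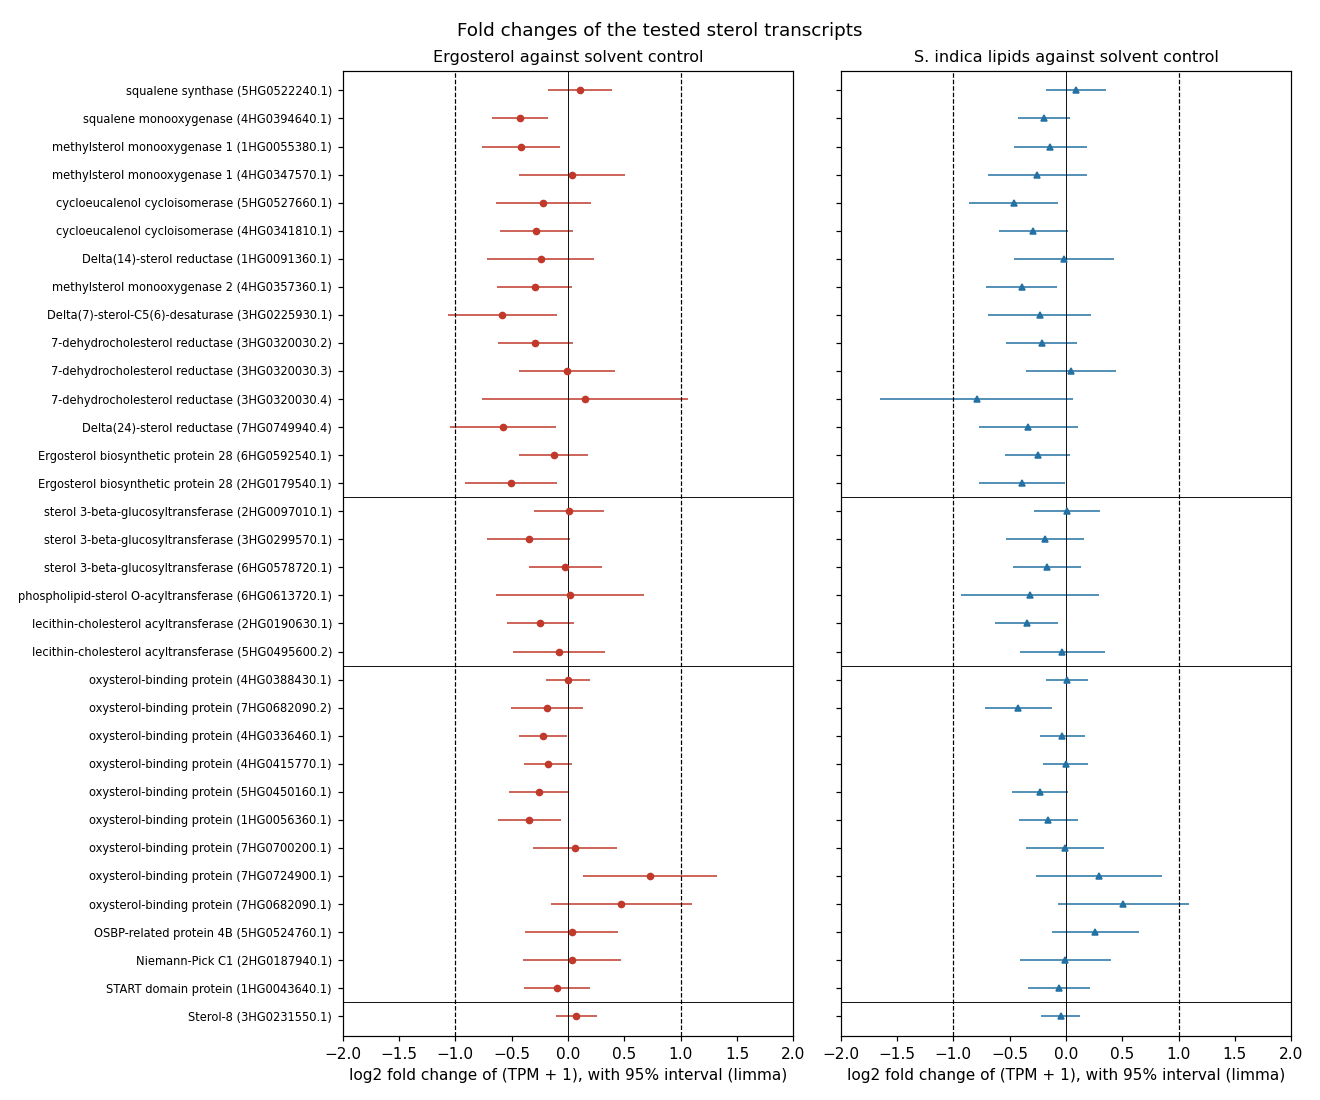
Log2FC of the 34 tested sterol transcripts with 95% intervals from limma, ergosterol against solvent control on the left and S. indica lipids against solvent control on the right, with dashed lines at the limits of -1 and 1. No point reaches a limit, and 29 and 32 of the 34 intervals lie between the lines.

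The synthesis transcripts lay mostly below the solvent control, by small amounts. Upon ergosterol 12 of 15 had a log2FC below 0, with a median of -0.28 and a range between -0.58 and 0.15, and upon S. indica lipids 13 of 15, with a median of -0.25 and a range between -0.79 and 0.09. Over all tested transcripts the median was -0.08 (63.1% negative) with ergosterol and -0.04 (58.8% negative) with the lipids. Both comparisons use the same 3 solvent control libraries, so that their directions are not independent. The 26 synthesis transcripts summed to 420, 410.0 and 398 TPM in ergosterol, 499, 445, 435 and 377 TPM in S. indica lipid, and 484, 512 and 541 TPM in solvent control libraries. The mean was 409 ± 11.2 TPM (SD, n = 3) upon ergosterol, 439 ± 50.0 TPM (SD, n = 4) upon S. indica lipids and 512 ± 28.4 TPM (SD, n = 3) in solvent control. All ergosterol libraries lay below all solvent control libraries in this sum, whereas S. indica lipid libraries overlapped with them. The Delta(7)-sterol-C5(6)-desaturase alone contributed 79.0 to 95.8 TPM in ergosterol libraries and 112 to 164 TPM in solvent control libraries. In S. indica lipid libraries it contributed 73.4 to 134 TPM. With this transcript left out of the sum, all ergosterol libraries still lay below all solvent control libraries. All S. indica lipid libraries then lay below them as well, narrowly for replicate 1, so the overlap in the full sum rests on this transcript. Scaled sums were not examined without it. After median-ratio scaling between libraries the sum spanned 406 to 429 TPM in ergosterol and 467 to 521 TPM in solvent control libraries and still did not overlap. With Sterol-8 added to the sum, it spanned 604 to 631 TPM in ergosterol and 678 to 750.3 TPM in solvent control libraries, and after scaling 617 to 640 TPM and 638 to 723 TPM, which overlap.

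In single transcripts, 6 synthesis transcripts had every ergosterol library below every solvent control library, as did 1 conjugating enzyme and 4 OSBPs, 11 of the 34 in all. Of all tested transcripts 17% showed this, and 9.09% had every ergosterol library above, as did 1 sterol transcript. Upon S. indica lipids 3 sterol transcripts lay wholly below, where 6.4% of all transcripts did, and 0 wholly above, where 6.85% did. After median-ratio scaling, an alternative added after seeing the data, 9 sterol transcripts lay wholly below and 2 above upon ergosterol. Over all transcripts the same scaling turned the split to 10.9% below and 13.8% above. It left 2 sterol transcripts below and 0 above upon S. indica lipids, where 5.59% of all transcripts lay below and 8.66% above.

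**Figure D3:**
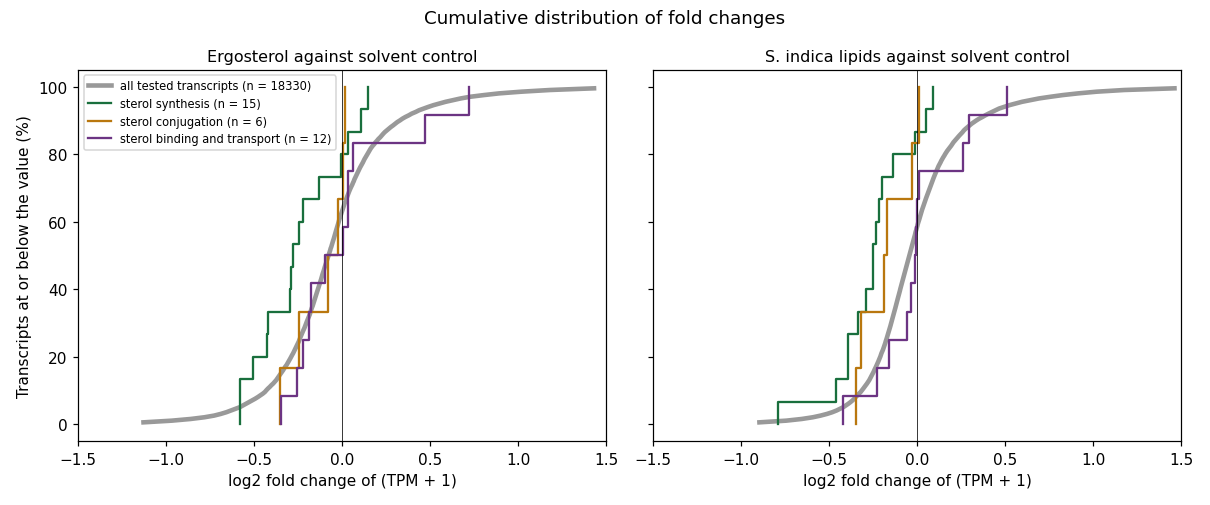
Cumulative share of transcripts (%) at or below a log2FC, for 15 synthesis (green), 6 conjugation (orange) and 12 binding and transport transcripts (purple) and for all 18330 tested transcripts (grey), ergosterol against solvent control on the left and S. indica lipids against solvent control on the right. The synthesis line lies left of the grey line over most of its range in both panels, with medians of -0.28 and -0.25, and binding and transport stay near it, with medians of -0.05 and -0.01.

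At the entry of the pathway, squalene synthase, which joins 2 farnesyl diphosphates, was level across treatments. HORVU.MOREX.r3.5HG0522240.1 measured 52.6, 45.2 and 54.0 TPM in ergosterol, 55.3, 54.5, 42.1 and 48.5 TPM in S. indica lipid, and 44.9, 53.7 and 42.5 TPM in solvent control libraries. Its log2FC was 0.11 upon ergosterol (SE 0.130, 95% interval -0.18 to 0.39) and 0.09 upon S. indica lipids (SE 0.121). The libraries of the 3 treatments overlapped throughout.

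Squalene monooxygenase, which makes the epoxide and is a known control point of sterol synthesis in animals and yeast, had the lowest adjusted p of the sterol transcripts upon ergosterol. HORVU.MOREX.r3.4HG0394640.1 measured 33.6, 39.8 and 30.1 TPM in ergosterol, 44.3, 38.5, 40.6 and 38.0 TPM in S. indica lipid, and 47.9, 43.4 and 47.9 TPM in solvent control libraries. Every ergosterol library was below every solvent control library, and S. indica lipid libraries overlapped with both, with replicates 2 and 4 below the highest ergosterol library and replicate 1 above the lowest solvent control library. The log2FC was -0.42 upon ergosterol (SE 0.112, 95% interval -0.67 to -0.18, adjusted p = 0.0721 by limma) and -0.20 upon S. indica lipids (SE 0.105, adjusted p = 0.408 by limma). The value without ergosterol replicate 2 was -0.53, with an adjusted p of 0.0330 (limma), the only fit among the alternatives that took this transcript past 0.05.

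Methylsterol monooxygenase 1 removes a methyl group at C4 of the early, cyclopropyl-derived sterols in Arabidopsis. HORVU.MOREX.r3.1HG0055380.1, described as type 1, measured 20.3, 28.5 and 24.6 TPM in ergosterol, 32.1, 33.3, 31.5 and 22.8 TPM in S. indica lipid, and 31.8, 30.9 and 35.7 TPM in solvent control libraries. Ergosterol libraries were below all solvent control libraries, while the only low S. indica lipid library was replicate 4. Ergosterol gave a log2FC of -0.42 (SE 0.158, adjusted p = 0.183 by limma) and the lipids one of -0.14 (SE 0.148, adjusted p = 0.718 by limma), or -0.02 without replicate 4. The other expressed type 1 transcript, HORVU.MOREX.r3.4HG0347570.1, gave 0.03 and -0.25 in the same comparisons. A type 2 transcript, HORVU.MOREX.r3.4HG0357360.1, acting on later sterols in Arabidopsis, measured 28.1, 21.0 and 21.2 TPM upon ergosterol, 25.04, 20.4, 18.6 and 23.2 TPM upon S. indica lipids and 24.5, 31.8 and 30.5 TPM in solvent control. Its libraries overlapped, with log2FC of -0.30 upon ergosterol and -0.39 upon S. indica lipids (adjusted p = 0.307 and 0.198 by limma).

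Cycloeucalenol cycloisomerase opens the cyclopropane ring that is particular to the plant route. HORVU.MOREX.r3.5HG0527660.1 measured 39.2, 32.7 and 34.9 TPM in ergosterol, 38.1, 25.6, 24.9 and 32.5 TPM in S. indica lipid, and 54.8, 35.5 and 36.8 TPM in solvent control libraries. Solvent control replicate 1 stood above the other 9 libraries, which overlapped. The log2FC was -0.22 upon ergosterol and -0.46 upon S. indica lipids (SE 0.179, adjusted p = 0.234 by limma). Without solvent control replicate 1 these values were -0.02 and -0.27. The other transcript of this name, HORVU.MOREX.r3.4HG0341810.1, gave -0.28 upon ergosterol and -0.29 upon S. indica lipids, and all its ergosterol libraries were below its solvent control libraries. Delta(14)-sterol reductase, HORVU.MOREX.r3.1HG0091360.1, which reduces a double bond left by removal of the C14 methyl group, was low in every library, between 1.35 and 3.08 TPM. Its log2FC was -0.24 and -0.01, with overlapping libraries.

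The lowest fold changes upon ergosterol belonged to the desaturase and the Delta(24)-sterol reductase, late enzymes of the chain. Delta(7)-sterol-C5(6)-desaturase introduces the C5 double bond found in plant membrane sterols. HORVU.MOREX.r3.3HG0225930.1 measured 79.0, 95.8 and 93.9 TPM in ergosterol, 133, 129, 134 and 73.4 TPM in S. indica lipid, and 112, 131 and 164 TPM in solvent control libraries. All ergosterol libraries were below all solvent control libraries, and S. indica lipid replicate 4 was below every other library. The log2FC upon ergosterol was -0.58 (SE 0.221, 95% interval -1.07 to -0.10, adjusted p = 0.183 by limma), and upon S. indica lipids -0.24 (SE 0.206, adjusted p = 0.645 by limma). Without S. indica lipid replicate 4 the value upon S. indica lipids was -0.03. That library does not enter the difference between ergosterol and solvent control, but it enters the pooled variance, and without it the adjusted p upon ergosterol was 0.0437 (limma).

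Delta(24)-sterol reductase, the enzyme known as DWARF1 in Arabidopsis, acts on the side chain on the way to campesterol and sitosterol. HORVU.MOREX.r3.7HG0749940.4 held 99.0% of the TPM of its locus, and the other 3 transcripts stayed below 0.1 TPM on average. It measured 17.5, 22.2 and 20.9 TPM in ergosterol, 25.8, 25.5, 30.3 and 16.5 TPM in S. indica lipid, and 23.7, 33.1 and 36.1 TPM in solvent control libraries. Ergosterol libraries did not overlap with solvent control libraries, and S. indica lipid libraries did. The log2FC was -0.58 upon ergosterol (SE 0.213, 95% interval -1.05 to -0.11, adjusted p = 0.173 by limma) and -0.34 upon S. indica lipids (SE 0.199, adjusted p = 0.466 by limma), the second of which was -0.16 without S. indica lipid replicate 4. In both this reductase and the desaturase the lowest library of each treatment was the same one, namely ergosterol replicate 1, S. indica lipid replicate 4 and solvent control replicate 1.

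**Figure D4:**
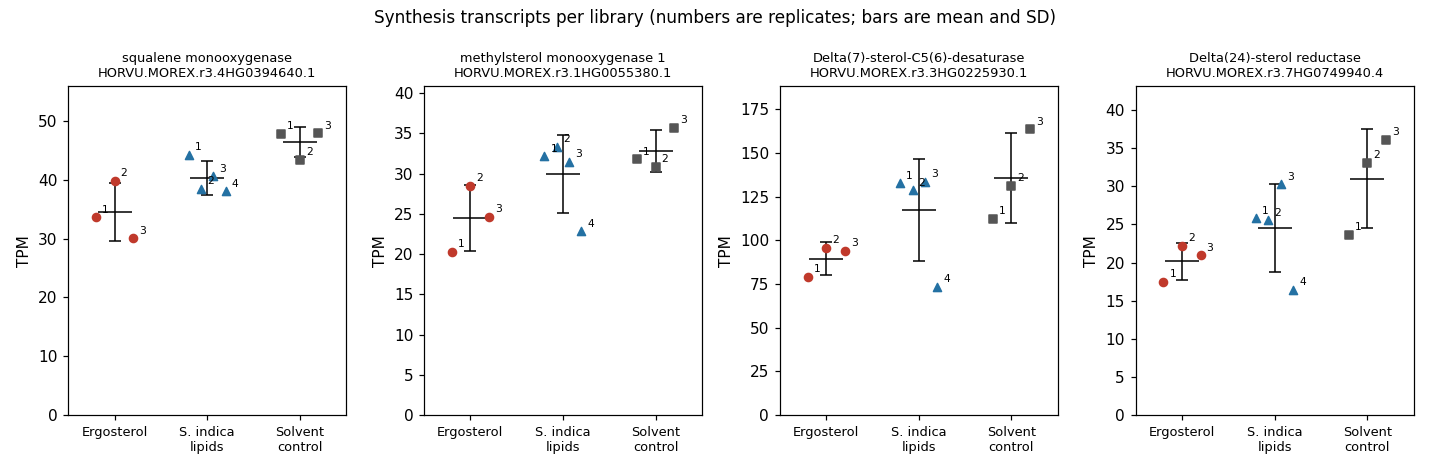
TPM of squalene monooxygenase, methylsterol monooxygenase 1, Delta(7)-sterol-C5(6)-desaturase and Delta(24)-sterol reductase in each library, labelled by replicate number, with horizontal bars for the mean and error bars for the SD of 3 ergosterol, 4 S. indica lipid and 3 solvent control libraries. In all 4 panels each ergosterol point lies below each solvent control point, and S. indica lipid replicate 4 is the lowest of its treatment, at 73.4 TPM for the desaturase. The 4 shown are among the 6 of 15 tested synthesis transcripts with this separation, so the panels do not stand for all synthesis transcripts.

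7-dehydrocholesterol reductase, DWARF5 in Arabidopsis, reduces the C7 double bond and had 3 tested transcripts of 1 locus. The main one, HORVU.MOREX.r3.3HG0320030.2, held 65.3% of the locus and measured 26.3, 19.8 and 24.6 TPM in ergosterol, 28.4, 27.1, 20.1 and 24.2 TPM in S. indica lipid, and 25.6, 32.7 and 28.9 TPM in solvent control libraries. Its log2FC was -0.29 and -0.22, with overlapping libraries. HORVU.MOREX.r3.3HG0320030.3, with 28.4% of the locus, gave -0.01 and 0.05. The minor transcript HORVU.MOREX.r3.3HG0320030.4, with 5.99%, was listed at 2.45, 3.70 and 3.36 TPM upon ergosterol, 2.33, 0, 2.34 and 0.941 TPM upon S. indica lipids, and 3.71, 1.65 and 3.15 TPM in solvent control. Its log2FC of -0.79 upon S. indica lipids was the lowest of all sterol transcripts but had the widest error (SE 0.389, 95% interval -1.65 to 0.07, adjusted p = 0.370 by limma), and was -0.42 without S. indica lipid replicate 2. Because transcripts of 1 locus share sequence, estimated abundances can shift between them.

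ERG28, a scaffold that in yeast holds the C4 demethylation enzymes together, was represented by 2 loci described as Ergosterol biosynthetic protein 28. The abundant one, HORVU.MOREX.r3.6HG0592540.1, measured 66.4, 52.6 and 50.0 TPM in ergosterol, 61.5, 47.3, 43.6 and 54.1 TPM in S. indica lipid, and 63.5, 60.2 and 59.8 TPM in solvent control libraries, and overlapped between treatments. HORVU.MOREX.r3.2HG0179540.1 measured 3.18, 2.45 and 1.91 TPM upon ergosterol, 2.80, 3.59, 2.22 and 2.53 TPM upon S. indica lipids and 3.36, 4.39 and 4.09 TPM in solvent control. Ergosterol libraries of this weak transcript lay below solvent control, with a log2FC of -0.50 (SE 0.185, adjusted p = 0.172 by limma), against -0.39 upon S. indica lipids (SE 0.173, adjusted p = 0.308 by limma).

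Conjugating enzymes gave medians of -0.05 (4 of 6 negative) with ergosterol and -0.18 (5 of 6 negative) with the lipids. The LCAT family transcript HORVU.MOREX.r3.2HG0190630.1 measured 82.2, 82.8 and 76.9 TPM in ergosterol, 83.9, 67.1, 71.2 and 78.5 TPM in S. indica lipid, and 119.9, 86.8 and 84.2 TPM in solvent control libraries. Both treatments lay below all solvent control libraries, narrowly for the nearest S. indica lipid library, and solvent control replicate 1 stood well above. The log2FC was -0.25 upon ergosterol (SE 0.136, adjusted p = 0.345 by limma) and -0.35 upon S. indica lipids (SE 0.127, adjusted p = 0.201 by limma), against -0.08 and -0.19 without solvent control replicate 1. Sterol 3-beta-glucosyltransferase, which makes steryl glucosides, was steady in its main transcript HORVU.MOREX.r3.2HG0097010.1, with 16.2 ± 2.56 TPM (SD, n = 3) upon ergosterol, 16.3 ± 1.92 TPM (SD, n = 4) upon S. indica lipids and 16.1 ± 1.84 TPM (SD, n = 3) in solvent control. The other 2 glucosyltransferases gave -0.35 and -0.02 upon ergosterol and -0.19 and -0.17 upon S. indica lipids. Phospholipid-sterol O-acyltransferase, which forms steryl esters, was near the detection minimum, with HORVU.MOREX.r3.6HG0613720.1 at 0.782, 1.20 and 2.09 TPM in ergosterol, 1.30, 0.172, 1.49 and 0.634 TPM in S. indica lipid, and 1.48, 1.16 and 1.19 TPM in solvent control libraries.

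Binding and transport transcripts centred near 0. The median over these proteins was -0.05 with ergosterol, 6 of 12 being negative, and -0.01 with the lipids, 8 of 12 being negative. The summed level was 259, 243 and 248 TPM in ergosterol, 266, 263, 245 and 260.0 TPM in S. indica lipid, and 269, 262 and 248 TPM in solvent control libraries, which overlapped. The most abundant OSBP, HORVU.MOREX.r3.4HG0388430.1, measured 112, 105 and 109 TPM in ergosterol, 119, 114, 97.6 and 107 TPM in S. indica lipid, and 106, 113 and 106 TPM in solvent control libraries. With a log2FC of 0.00 upon ergosterol (SE 0.0885, 95% interval -0.19 to 0.20) it was among the most closely bounded sterol transcripts.

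The highest sterol log2FC upon ergosterol belonged to the OSBP HORVU.MOREX.r3.7HG0724900.1, a weakly expressed transcript with 3.39, 3.71 and 6.67 TPM in ergosterol, 2.99, 4.37, 2.55 and 2.43 TPM in S. indica lipid, and 3.29, 1.47 and 2.32 TPM in solvent control libraries. It was the only sterol transcript with all ergosterol libraries above all solvent control libraries, narrowly at the nearest pair, and ergosterol replicate 3 was far above the rest. The log2FC was 0.72 upon ergosterol (SE 0.270, 95% interval 0.13 to 1.32, adjusted p = 0.178 by limma) and 0.29 upon S. indica lipids, and without ergosterol replicate 3 the first of these was 0.47.

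Another OSBP locus gave 2 transcripts with opposite signs. HORVU.MOREX.r3.7HG0682090.2 measured 26.7, 23.05 and 23.5 TPM in ergosterol, 24.4, 17.2, 18.1 and 23.4 TPM in S. indica lipid, and 31.2, 25.6 and 27.2 TPM in solvent control libraries, so that all S. indica lipid libraries lay below solvent control. Its log2FC was -0.42 upon S. indica lipids, with the lowest adjusted p of the sterol transcripts in that comparison (SE 0.135, 95% interval -0.72 to -0.12, adjusted p = 0.143 by limma), and -0.19 upon ergosterol. HORVU.MOREX.r3.7HG0682090.1, with 5.94% of the locus, measured 1.69, 1.82 and 1.497 TPM in ergosterol, 1.75, 1.59, 1.35 and 2.32 TPM in S. indica lipid, and 1.95, 0.207 and 0.990 TPM in solvent control libraries. It gave 0.47 upon ergosterol and 0.51 upon S. indica lipids, or 0.14 and 0.17 without solvent control replicate 2, and for the locus as a whole the log2FC was -0.14 upon ergosterol and -0.36 upon S. indica lipids.

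Among the other OSBPs, 4 had all ergosterol libraries below all solvent control libraries, with log2FC between -0.35 and -0.18. The transcript with the lowest log2FC among them, HORVU.MOREX.r3.1HG0056360.1, measured 6.71, 6.42 and 5.19 TPM in ergosterol, 7.67, 7.56, 6.77 and 6.27 TPM in S. indica lipid, and 7.70, 7.75 and 8.53 TPM in solvent control libraries. It lay below solvent control in both treatments, narrowly upon S. indica lipids. OSBP-related protein 4B, HORVU.MOREX.r3.5HG0524760.1, measured 36.1, 39.0 and 33.6 TPM in ergosterol, 30.9, 45.7, 53.0 and 43.4 TPM in S. indica lipid, and 42.8, 35.6 and 28.9 TPM in solvent control libraries, with log2FC of 0.03 and 0.26. Niemann-Pick C1, the membrane protein that in animals moves cholesterol out of lysosomes, measured 9.81, 7.17 and 8.91 TPM in ergosterol, 10.4, 8.31, 6.75 and 8.06 TPM in S. indica lipid, and 6.18, 10.4 and 8.97 TPM in solvent control libraries for HORVU.MOREX.r3.2HG0187940.1. The START domain transcript HORVU.MOREX.r3.1HG0043640.1 averaged 14.1 ± 1.54 TPM (SD, n = 3) upon ergosterol, 14.5 ± 1.15 TPM (SD, n = 4) upon S. indica lipids and 15.2 ± 2.61 TPM (SD, n = 3) in solvent control. All 3 of these proteins overlapped between treatments.

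Ergosterol and S. indica lipids were also compared with each other, at the doses given above, which are not matched because the ergosterol content of the extract was not measured here. None of the 34 sterol transcripts passed an adjusted p of 0.05 (lowest 0.908 by limma), where 1 of all 18330 transcripts did (0.00546%). At an unadjusted p under 0.05, 1 sterol transcript differed, where 5.32% of all transcripts did. It was the minor 7-dehydrocholesterol reductase transcript HORVU.MOREX.r3.3HG0320030.4, with a log2FC of 0.94 and the S. indica lipid libraries at 0 and 0.941 TPM described above. The median over the sterol transcripts was -0.02, against -0.03 over all transcripts. The 95% interval lay within -1 and 1 for 33 of 34.

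The reactions before and after sterol synthesis were followed with lists from the same descriptions. For the mevalonate pathway and the synthesis of farnesyl diphosphate, 18 transcripts matched and 14 were tested, of which 0 rose and 0 fell at an adjusted p of 0.05 in either comparison. In each comparison 11 of 14 lay below 0, with medians of -0.21 upon ergosterol and -0.16 upon S. indica lipids, where 63.1% and 58.8% of all transcripts were negative. An unadjusted p below 0.05 was reached by 6 transcripts upon ergosterol, all of them lower, where 11.8% of all transcripts were lower. Upon S. indica lipids it was reached by 1, also lower, where 6.75% of all transcripts were. The most abundant HMG-CoA reductase, the known control point of the mevalonate pathway, was HORVU.MOREX.r3.5HG0491360.1, with 15.2, 18.6 and 18.5 TPM in ergosterol, 16.3, 25.6, 21.5 and 16.1 TPM in S. indica lipid, and 12.8, 17.2 and 16.2 TPM in solvent control libraries. Its log2FC was 0.18 upon ergosterol and 0.33 upon S. indica lipids, whereas a weaker HMG-CoA reductase, HORVU.MOREX.r3.7HG0680680.1, gave -0.55 and -0.33. The lowest value upon ergosterol was -0.58 for the HMG-CoA synthase HORVU.MOREX.r3.4HG0413410.1, with 3.91, 3.83 and 3.83 TPM in ergosterol and 5.18, 7.26 and 6.54 TPM in solvent control libraries. The main farnesyl diphosphate synthase, HORVU.MOREX.r3.1HG0079800.1, which supplies squalene synthase, gave -0.16 and -0.18. None of these differences passed the adjusted p.

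For steroid reactions 16 transcripts matched and 5 were tested, again with 0 at an adjusted p of 0.05. The search words brassinosteroid and brassinazole matched no description, so brassinosteroid synthesis as such was not followed. Medians were -0.14 upon ergosterol and -0.12 upon S. indica lipids, with 4 of 5 below 0 in each. Steroid 5-alpha reductase, the type of enzyme that DET2 represents in Arabidopsis brassinosteroid synthesis, measured 38.6, 39.2 and 43.4 TPM in ergosterol, 46.0, 43.3, 42.1 and 36.9 TPM in S. indica lipid, and 30.6, 40.7 and 35.6 TPM in solvent control libraries for HORVU.MOREX.r3.3HG0230880.1. Its log2FC of 0.18 and 0.24 had overlapping libraries. The other 4 tested transcripts bore the related name 3-oxo-5-alpha-steroid 4-dehydrogenase, and all lay below 0 in both comparisons. The most abundant of them, HORVU.MOREX.r3.4HG0336810.1, gave -0.14 upon ergosterol and -0.24 upon S. indica lipids. The lowest, HORVU.MOREX.r3.3HG0301780.1, gave -0.38 in both (adjusted p = 0.245 and 0.282 by limma).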

How the data were processed

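Root RNA was measured by paired-end RNA-Seq. The authors trimmed reads with Trimmomatic 0.39, checked them with FastQC and quantified transcripts with kallisto 0.46.1 against the MorexV3 cDNA. The deposited values are TPM per library. Column sums of 1148537 to 1169533 became 1000000 once 5420 repeated lines were dropped. Mean columns, and the authors' log2 fold changes and q-values from sleuth, were not used. Of the 4 replicates that the paper's methods describe for each treatment, 3 ergosterol, 4 S. indica lipid and 3 solvent control libraries were analysed here.

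All 10 libraries were fitted together with limma 3.58.1 in R 4.3.3 on log2(TPM + 1), with variances moderated along a trend, for transcripts averaging 1 TPM or more. P-values are two-sided and were adjusted by Benjamini-Hochberg over all transcripts. The procedure was tested on simulated data. The call limits follow the paper. TPM give no depth, so no counting interval was given.

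Named transcripts were, among those tested, all with an adjusted p of at most 0.05, the most abundant per enzyme or family, and the 3 highest and 3 lowest log2FC of each comparison with solvent control. Transcripts whose libraries did not overlap, other transcripts of a named enzyme, and those of the neighbouring lists were named after their values were seen. Members and lists were chosen with earlier results of these data known. In the mevalonate and farnesyl list, 8 matches of other reactions, such as protein farnesylation, were set aside. Sterol-8 was kept out of the synthesis group because its description names no reaction, a choice made after sums with it had been seen. Identifiers were not matched to the gene table at hand, and positions and sequences are not given.

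As alternatives, the fit was repeated with pseudocounts of 0.5 and 0.1, without a minimum or with one of 5 TPM, with median-ratio scaling, no variance trend, only the 2 groups compared, a block for the replicate number, summing of the TPM of each locus, and with each library left out in turn.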

Additional observations from a re-analysis of the deposited data

Results flagged for a closer look

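In the 4 S. indica lipid libraries, the Delta(7)-sterol-C5(6)-desaturase HORVU.MOREX.r3.3HG0225930.1 measured 133, 129 and 134 TPM in replicates 1, 2 and 3 and 73.4 TPM in replicate 4. The gap of replicate 4 to the nearest library, divided by the range of the 4 libraries, exceeded the 95% critical value of Dixon's test. Chance alone exceeds that value in about 1 in 20 groups. Every transcript selected by the naming rules was put to this test, and only this one was flagged. Over that many transcripts, an exceedance by chance would not be unusual. Without this library the log2FC upon S. indica lipids was -0.03, against -0.24 with it. The library does not enter the difference between ergosterol and solvent control, only the pooled variance, and without it the adjusted p of that difference was 0.0437 (limma). The cause of the low value was not tested.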

How the results depend on the processing

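Under every alternative 0 sterol transcripts passed both limits. Without the fold limit 0 passed upon S. indica lipids and 0 between the treatments under every alternative, and upon ergosterol the count was 0 except in 3 fits. With the replicate number as a block it was 2, the desaturase and the Delta(24)-sterol reductase, at unmoved log2FC of -0.58 and -0.58 and a lowest adjusted p of 0.0398 (limma). Only S. indica lipids had a replicate 4, so the block fit also takes that library, low for both transcripts, out of the pooled variance. The count with the block is thus not separate from the fit without that library. With single libraries left out the count ranged over 0 to 1. Libraries with the same number shared no consistent deviation over all tested transcripts, with correlations between -0.188 and 0.196. With so few libraries this cannot exclude that the numbers pair the samples. The lowest adjusted p of a sterol transcript over all fits ranged over 0.0330 to 0.239 upon ergosterol, 0.0578 to 0.325 upon S. indica lipids and 0.264 to 1 between the treatments. The median of the synthesis transcripts stayed below 0 in every fit, with a range of -0.38 to -0.17 for ergosterol and of -0.31 to -0.17 for the lipids. That of binding and transport crossed 0, between -0.14 and 0.03 and between -0.07 and 0.05. After median-ratio scaling 2 instead of 1 sterol transcripts lay wholly above solvent control upon ergosterol, and the median of all transcripts moved to -0.01.

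Log2FC of transcripts that passed no limit changed sign in 39 refitted values. Per locus, HORVU.MOREX.r3.7HG0682090.1 gave -0.14 upon ergosterol and -0.36 upon S. indica lipids, and HORVU.MOREX.r3.3HG0320030.4 gave -0.19 upon ergosterol, since these fits add the main transcripts of each locus. Median-ratio scaling gave 0.011 for Delta(14)-sterol reductase and 0.021 for Niemann-Pick C1 upon S. indica lipids, the replicate block gave 0.00535 for the second of these, and a pseudocount of 0.1 gave -0.0093 for phospholipid-sterol O-acyltransferase upon ergosterol. With single libraries left out, values upon ergosterol ranged over -0.18 to 0.029 for the START domain transcript, -0.10 to 0.11 for glucosyltransferase HORVU.MOREX.r3.2HG0097010.1, -0.16 to 0.18 for Niemann-Pick C1, -0.10 to 0.32 for HORVU.MOREX.r3.3HG0320030.4, -0.017 to 0.032 for OSBP HORVU.MOREX.r3.4HG0388430.1, -0.11 to 0.17 for OSBP-related protein 4B and -0.20 to 0.20 for the O-acyltransferase. Upon S. indica lipids they ranged over -0.13 to 0.070 for the START domain transcript, -0.19 to 0.078 for Delta(14)-sterol reductase, -0.0564 to 0.094 for the glucosyltransferase, -0.20 to 0.14 for Niemann-Pick C1 and -0.032 to 0.063 for the OSBP. The cause of these changes was not tested. The number of libraries and the unknown depth limit what can be detected, most of all for transcripts near 1 TPM.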
